A study of Homo sapiens with 6 samples.

Results

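The stress-responsive dual-specificity phosphatases described here are 8 genes, DUSP1, DUSP2, DUSP3, DUSP7, DUSP8, DUSP10, DUSP14 and DUSP16, taken by symbol from 24462 gene symbols in the count files. All 8 were found, and all 8 had enough counts to be tested. DUSP4, DUSP5 and DUSP6, which follow ERK activity, were left out of the set by rule and serve below for comparison, together with DUSP9. H460 cells, a long-established line from a human large-cell lung carcinoma, were kept for 24 h in RPMI 1640 without glutamine and with 10% dialyzed fetal bovine serum (depleted, 3 libraries). They were set against glutamine-replete H460 cells (replete, 3 libraries). The growth medium of both was RPMI 1640 to which penicillin/streptomycin (1%) and fetal bovine serum (10%) had been added. Which serum the replete cells had during those hours is not spelled out, so a difference in serum cannot be told apart from glutamine withdrawal. RNA was measured by 3′-end sequencing, in which a read marks the polyadenylated end of a transcript, so counts do not scale with transcript length, but levels are still not compared between genes here. The study's question was which transcripts differ when glutamine is withdrawn. A single cell line was used. Whether the replicates are separate cultures is not stated, and p-values therefore reflect only the spread among these samples, which could be technical.

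MAP kinases are switched on by phosphorylation of a threonine and a tyrosine in one activation loop, and dual-specificity phosphatases switch them off by removing both phosphates. The family divides by substrate and by place: DUSP1 and DUSP2 are nuclear enzymes made as immediate early genes, DUSP8, DUSP10 and DUSP16 act mainly on the stress-activated kinases JNK and p38, and DUSP7 is a cytoplasmic enzyme that prefers ERK. DUSP3 and DUSP14 are small atypical members that lack the kinase-binding domain of the others. Because MAP kinase activity induces several of these genes, their transcripts are often read as a feedback response to stress and growth signals.

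Promoter sequence is described first. Several motifs were searched for, and the palindrome shared by DUSP1 and DUSP8 upstream of their starts came out of that search. RefSeq (GRCh38.p14) gave windows for 8 of 8 genes, 9 windows in all since DUSP10 has a pair, and the 250 bases before each start were searched on both strands. The cAMP response element TGACGTCA, a site bound by CREB and ATF family factors, was found in 2 of 8 genes, once in DUSP1 and at 2 places in DUSP8, and in 1.64% of 34788 promoter windows of the same length. Its core TGACG, which is contained in the full element, was found in 3 of 8 genes, DUSP3 (from −99 to −95) being the other one, and in 21.2% of all windows. The windows of DUSP1 (chr5:172771196-172771445, minus strand) and DUSP8 (chr11:1572272-1572521, minus strand) are printed 5′ to 3′ with the cores, full elements and the TATAAA box of DUSP1 in capitals.
DUSP1: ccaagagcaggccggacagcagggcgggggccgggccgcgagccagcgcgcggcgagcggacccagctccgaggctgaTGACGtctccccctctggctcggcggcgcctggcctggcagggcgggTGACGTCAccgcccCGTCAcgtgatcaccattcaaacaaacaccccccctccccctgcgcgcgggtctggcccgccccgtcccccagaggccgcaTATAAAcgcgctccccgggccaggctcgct
DUSP8: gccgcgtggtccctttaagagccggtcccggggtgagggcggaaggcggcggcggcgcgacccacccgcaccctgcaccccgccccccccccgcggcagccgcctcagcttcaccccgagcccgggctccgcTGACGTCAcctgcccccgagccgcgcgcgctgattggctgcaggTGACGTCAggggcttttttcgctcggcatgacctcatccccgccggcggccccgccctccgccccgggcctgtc
In DUSP1 the full element ran from −125 to −118 and the TATAAA box from −30 to −25, counted from the start, and in DUSP8 the elements ran from −118 to −111 and from −74 to −67. The RefSeq start of DUSP8 lies upstream of the GENCODE 29 gene, so its positions depend on the annotation. TATAAA was found in 10.8% of all windows. The GC box GGGCGG, a site of SP1-type factors, was found in 8 of 8 genes and in 42.6% of all windows, and CCAAT in DUSP8 and DUSP10 and in 32.02% of all windows. None of the 8 genes held TGANTCA (the AP-1 site, 6.59% of all windows), TGATGNAAT (the composite site of C/EBP and ATF factors, 0.897%), a CArG box (1.17%) or an NF-κB site (5.21%) in these windows. A match is a description of the letters and no evidence of binding, and a missing match covers these 250 bases only.

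The 3′ untranslated regions were searched for AU-rich elements, letters through which RNA-binding proteins control the decay of many short-lived transcripts. The nonamer TTATTTATT occurred in 2 of 8 genes, at 2 places in DUSP1 and once in DUSP8, and in 8.92% of 11247 tested genes with an annotated 3′ untranslated region. These are the same 2 genes that held the full promoter element. The sites are printed with 8 flanking bases on each side and the nonamer in capitals.
DUSP1, site 1: gctggtccTTATTTATTtaacttca
DUSP1, site 2: aatataccTTATTTATTtttgtgta
DUSP8, site 1: tcgattttTTATTTATTtaagctgt
The sites of DUSP1 began at bases 101 and 369 of a region of 672 bases, and that of DUSP8 at base 126 of 2474 bases. The pentamer ATTTA was found in 7 of 8 genes and in 71.2% of tested genes. Per kilobase it was densest in DUSP1 (5.95), DUSP14 (4.75) and DUSP2 (4.57), against a median of 1.71 over tested genes, and DUSP7 held none in 1896 bases.

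By GENCODE 29 (GRCh38) the genes lie on chromosomes 5 (DUSP1), 2 (DUSP2), 11 (DUSP8), 1 (DUSP10), 12 (DUSP16), 3 (DUSP7) and 17 (DUSP3 and DUSP14), and none of them shares exon bases with another counted gene. DUSP3 (chr17:43766121-43778988, minus strand) and DUSP14 (chr17:37489831-37513501, plus strand) are on the same chromosome but are not neighbours.

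Library totals ran from 7550849 to 10914899 counts, and a count of 0 allows up to 3 counts, which stood for 0.275 to 0.397 CPM (the count scaled by the library total). All counting intervals and this limit cover counting error only. Depleted replicate 2 stood apart from the other depleted libraries, its gene counts giving a chi-square over degrees of freedom of 19.4 against replicate 1 and 11.7 against replicate 3, while all other pairs within a group lay between 1.51 and 3.92. The marker counts that follow stand beside 39.1% of 12739 tested genes that rose and 39.4% that fell at an adjusted p under 0.05 in edgeR. Of 8 epithelial markers 6 were tested, of which 1 rose, 3 fell and 2 did not pass. EPCAM and CDH1 were at or near 0 in all 6 libraries. The keratin KRT7 rose (33.8 to 40.8 CPM in depleted and 8.59 to 9.27 CPM in replete libraries, log2 fold change 2.32). KRT19 (290 to 380 CPM in depleted and 1392 to 1414 CPM in replete libraries), KRT8 and CLDN4 fell, and KRT18 and CLDN7 had log2 fold changes of −0.06 and −0.0027. The list summed to 805 to 932 CPM in depleted libraries and 2114 to 2140 CPM in replete ones, with KRT19 the main part of the gap. Blood cell markers, of which 1 of 8 was tested and fell, summed to 2.06 to 2.66 CPM in depleted and 2.55 to 5.30 CPM in replete libraries. Fibroblast and endothelial markers summed to 32.9 to 109 CPM in depleted and 25.7 to 39.6 CPM in replete libraries, and of 4 tested 1 rose, 1 fell and 2 did not pass. COL3A1 rose, with 28.8, 22.0 and 28.7 CPM in depleted libraries, against 10.4, 11.0 and 12.7 CPM in replete libraries (log2 fold change 1.45), and LUM fell by 1.00. COL1A1 did not pass, at 7.51, 6.19 and 56.5 CPM in depleted libraries, against 3.43, 8.97 and 13.4 CPM in replete libraries, and the endothelial genes VWF and CDH5 had no count. Without depleted replicate 3, the library high in COL1A1, 8 of 8 phosphatase genes were called higher, beside 4863 of 13010 tested genes. The part of the markers that rose or fell was not tested.

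All 8 phosphatase transcripts were higher in the glutamine-depleted cells, and for each of them every depleted library exceeded every replete library. Of 8 tested genes, 8 rose and 0 fell at an adjusted p under 0.05 in edgeR's quasi-likelihood test, where 39.1% of 12739 tested genes rose and 39.4% fell, 78.6% in all. The CPM ranges of the groups did not overlap, with depleted libraries higher, for 8 of 8 genes and for 33.2% of all tested genes, and 47.8% of all tested genes were separated with depleted libraries lower. DUSP10 is counted among the 8 although it passed the count filter through its depleted libraries. The median log2 fold change was 1.92 for the set and −0.02 over all tested genes. The members were chosen with earlier results of these data known, so this contrast is descriptive only, and it was not tested. Log2 fold changes are depleted over replete and use trimmed-mean (TMM) scaling, which sits 0.23 above scaling by library totals for the median gene. With library totals alone, 8 of 8 genes were also called higher, beside 4132 of 12739 tested genes. The RNA is from bulk cells, so a change in the number of cells that express a gene and a change in RNA per cell cannot be told apart.

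**Figure D1:**
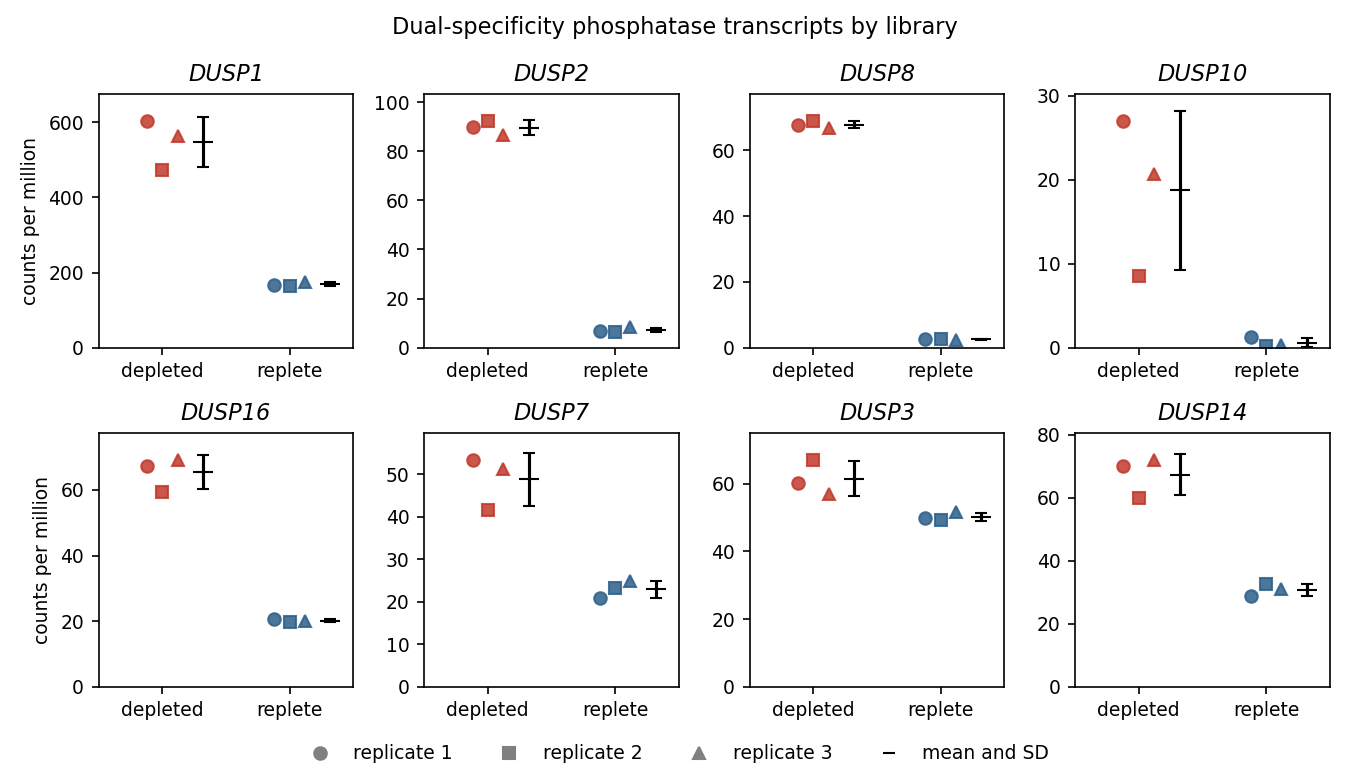
CPM of the 8 phosphatase genes (vertical axes, each from 0) in the depleted (red, left) and replete (blue, right) libraries, with 1 symbol shape per replicate and the mean with its SD (n = 3) in black. In every panel all depleted libraries lie above all replete libraries. The gap is narrowest in DUSP3, where depleted replicate 3 had 57.1 CPM and the highest replete library 51.7 CPM. The exact Poisson intervals of these libraries, 52.2 to 62.4 CPM and 46.7 to 57.0 CPM, overlap.

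Among the nuclear immediate early enzymes, DUSP1, a broad phosphatase of JNK, p38 and ERK, had 604, 474 and 564 CPM in depleted replicates 1, 2 and 3, against 168, 164 and 174 CPM in replete replicates 1, 2 and 3. The replete libraries lay close together and the depleted ones spread more, with replicate 2 the lowest of them. DUSP1 averaged 547 ± 66.8 CPM in depleted and 169 ± 4.90 CPM in replete cells (SD, n = 3 each; log2 fold change 1.92, SE 0.09, edgeR adjusted p = 3.54e-10). DUSP2, first described in activated T cells, had 90.0, 92.4 and 86.5 CPM in depleted libraries, against 6.65, 6.57 and 8.34 CPM in replete libraries. Its depleted libraries were nearly level, and its log2 fold change was 3.87 (SE 0.12, edgeR adjusted p = 1.19e-11). Of all tested genes, 1.79% had a larger log2 fold change than DUSP2 and 8.71% a larger one than DUSP1.

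The enzymes that act mainly on JNK and p38 included the largest increases of the set. DUSP8, known for high expression in brain and heart, had 67.7, 69.0 and 66.7 CPM in depleted libraries, against 2.77, 2.53 and 2.25 CPM in replete libraries. The depleted libraries differed by only 1.03 times between the lowest and the highest. The log2 fold change was 4.96 (SE 0.13, edgeR adjusted p = 3.77e-12), with 0.879% of tested genes rising by more. In summed counts DUSP8 stood at 1919 in depleted and 62 in replete cells, a CPM ratio of 26.8 with an exact 95% counting interval of 20.8 to 35.1. The annotation lists 3 pseudogenes of DUSP8, none of which is in the count files, so reads from such copies cannot be told apart from those of DUSP8.

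DUSP10, a JNK and p38 phosphatase known from immune and stress responses, had 27.0, 8.48 and 20.7 CPM in depleted libraries, against 1.22, 0.253 and 0.265 CPM in replete libraries. Depleted replicate 2 was well below the other depleted libraries, and its exact Poisson interval of 6.66 to 10.6 CPM did not reach those of replicate 1 (24.0 to 30.3) or replicate 3 (17.7 to 23.9). In replete cells DUSP10 rested on 11, 2 and 2 counts, so those levels are near the detection limit. DUSP10 passed the count filter through its depleted libraries, the group where it is high, so its call is no separate support for a rise. The CPM ratio of the summed counts, 548 in depleted and 15 in replete cells, was 31.6 with an exact 95% counting interval of 19.0 to 56.9. The log2 fold change was 5.14 (SE 0.74, edgeR adjusted p = 0.00107), the largest of the set, and it was 6.30 without replete replicate 1 (adjusted p = 0.00204), the library that held most of the replete counts. DUSP8 and DUSP10 differed in log2 fold change by less than the SE of DUSP10.

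DUSP16, the remaining phosphatase of this type, which moves between nucleus and cytoplasm, had 67.3, 59.4 and 69.2 CPM in depleted libraries, against 20.6, 19.7 and 20.1 CPM in replete libraries. The replete libraries agreed within 1.05 times. DUSP16 rose by 1.92 on the log2 scale (SE 0.10, edgeR adjusted p = 1.37e-09), which equals the change of DUSP1 within error.

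DUSP7, the ERK-preferring cytoplasmic enzyme of the set, had 53.4, 41.6 and 51.3 CPM in depleted libraries, against 20.8, 23.2 and 24.8 CPM in replete libraries. Both groups spread by a similar factor, 1.28 times in depleted and 1.19 times in replete libraries. The log2 fold change was 1.32 (SE 0.12, edgeR adjusted p = 3.14e-07). DUSP14, an atypical phosphatase that acts on the MAP3 kinase TAK1 and its partner TAB1, had 70.3, 59.8 and 72.1 CPM in depleted libraries, against 28.8, 32.6 and 31.1 CPM in replete libraries. DUSP14 rose by 1.36 on the log2 scale (SE 0.10, edgeR adjusted p = 5.36e-08), within error of DUSP7. About 16.0% of tested genes rose by more than DUSP7 and 15.3% by more than DUSP14.

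DUSP3, an atypical phosphatase linked to ERK and JNK and to cell cycle progression, changed least. It had 60.3, 67.1 and 57.1 CPM in depleted libraries, against 49.95, 49.4 and 51.7 CPM in replete libraries. It averaged 61.5 ± 5.12 CPM in depleted and 50.3 ± 1.18 CPM in replete cells (SD, n = 3 each; log2 fold change 0.52, SE 0.09, edgeR adjusted p = 0.000195). This lies inside the bulk of all genes, of which 33.7% changed by more in the same direction. The change was 0.29 with library totals alone (adjusted p = 0.0105), and it did not pass when tested against a 1.5-fold change (glmTreat adjusted p = 0.692).

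**Figure D2:**
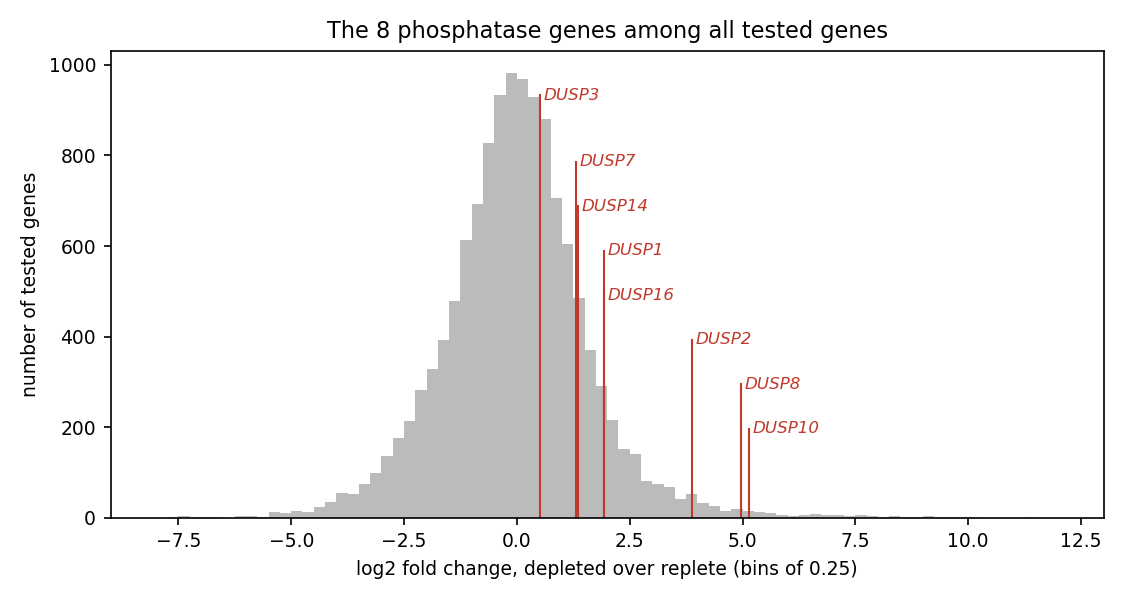
Number of tested genes (vertical axis) by log2 fold change, depleted over replete (horizontal axis, bins of 0.25), for 12739 genes in grey, with the 8 phosphatase genes marked by red lines whose height carries no value. DUSP3, at 0.52, sits in the bulk of the distribution, and DUSP8 and DUSP10, at 4.96 and 5.14, sit in its right tail.

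By size of change the 8 genes fell into steps: DUSP10 and DUSP8 at the top, then DUSP2, then DUSP1 and DUSP16, then DUSP14 and DUSP7, and DUSP3 last. Genes within a step differed by less than the larger of their SEs, and the wide error of DUSP10 leaves its place above DUSP2 uncertain. Depleted replicate 2 was the lowest depleted library for 5 genes, DUSP1, DUSP7, DUSP10, DUSP14 and DUSP16, and the highest for the other 3, DUSP2, DUSP3 and DUSP8. The ratio of the highest to the lowest depleted library was 3.19 for DUSP10 and between 1.03 and 1.28 for the other genes. Without depleted replicate 2, 8 of 8 genes were called higher, beside 5257 of 13000 tested genes. The log2 fold changes were then 2.02 for DUSP1, 5.49 for DUSP10 and 0.45 for DUSP3.

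**Figure D3:**
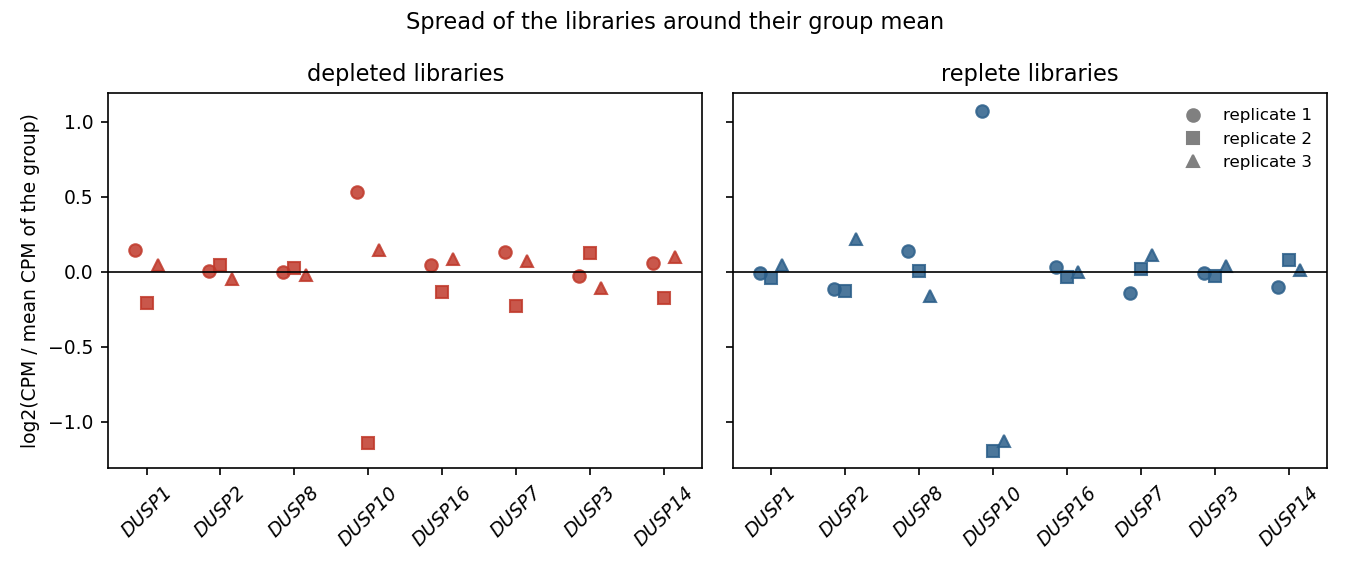
Log2 of the CPM of each library over the mean CPM of its group (vertical axis) for the 8 phosphatase genes, with depleted libraries on the left, replete libraries on the right and 1 symbol shape per replicate. DUSP10 spreads most in both groups, and depleted replicate 2 (squares) is the lowest depleted library for 5 genes and the highest for 3.

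The nearest relatives outside the set moved in both directions. DUSP4, a nuclear phosphatase induced by ERK, had 123, 127 and 136 CPM in depleted libraries, against 267, 277 and 291 CPM in replete libraries (log2 fold change −0.89, SE 0.07, edgeR adjusted p = 1.44e-07). DUSP6, the cytoplasmic ERK phosphatase and a standard readout of ERK activity, had 377, 229 and 349 CPM in depleted libraries, against 824, 887 and 861 CPM in replete libraries. It fell by 1.20 on the log2 scale (SE 0.18, edgeR adjusted p = 0.00063), and depleted replicate 2 was again the lowest. DUSP9, another cytoplasmic ERK phosphatase, had 1.10, 0.573 and 1.27 CPM in depleted libraries, against 8.86, 6.57 and 10.6 CPM in replete libraries. It fell by 2.89 on the log2 scale (SE 0.30, edgeR adjusted p = 1.24e-06). DUSP5, a nuclear ERK phosphatase with 2 annotated pseudogenes, went the other way, with 212, 187 and 213 CPM in depleted libraries, against 73.7, 79.3 and 82.9 CPM in replete libraries (log2 fold change 1.60, SE 0.08, edgeR adjusted p = 1.55e-09). Thus 1 of these 4 genes rose and 3 fell, where 39.1% of all tested genes rose and 39.4% fell. DUSP7, the cytoplasmic ERK phosphatase of the set, was on the side of DUSP5. Whether the set as a whole differs from these 4 genes was not tested.

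**Figure D4:**
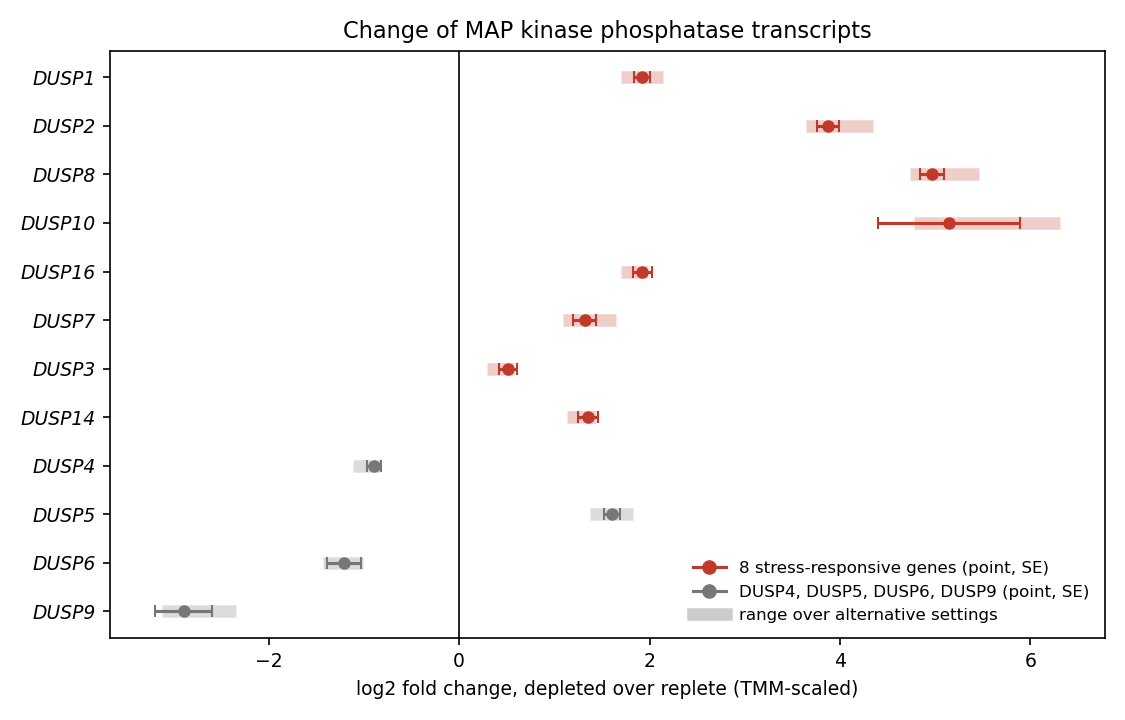
Log2 fold change, depleted over replete (horizontal axis), of the 8 phosphatase genes (red) and of DUSP4, DUSP5, DUSP6 and DUSP9 (grey), with the SE as bars and the range over the alternative settings as pale bands. All 8 red bands lie right of 0, and the bands of DUSP4, DUSP6 and DUSP9 lie left of it.

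Of 18 other dual-specificity phosphatases tested, 5 rose and 11 fell (median log2 fold change −0.64), where 39.1% of all tested genes rose and 39.4% fell. The difference from all genes was not tested, here or for the lists that follow. PTP4A1, a membrane-bound phosphatase of the PRL group with 7 annotated pseudogenes that make its counts uncertain, rose by 1.94 to 3130 ± 15.5 CPM in depleted cells, against 953 ± 21.5 CPM in replete cells (SD, n = 3 each, edgeR adjusted p = 7.13e-12). DUSP11, which acts on the 5′ triphosphate of RNA, rose by 1.25 on the log2 scale. DUSP22, a small phosphatase of the JNK pathway, had 41.8, 57.8 and 49.0 CPM in depleted libraries, against 204, 204 and 201 CPM in replete libraries, and fell by 1.81 (edgeR adjusted p = 5.36e-09). PTP4A2, a relative of PTP4A1 that also has pseudogenes, fell by 0.82. Among 10 other phosphatases that act on MAP kinases, 8 rose and 1 fell (median 0.90). PPM1D, the serine/threonine phosphatase WIP1 that acts on p38, rose to 98.9 ± 4.60 CPM in depleted cells, against 16.1 ± 0.789 CPM in replete cells (log2 fold change 2.85, edgeR adjusted p = 2.94e-11). The catalytic subunit PPP2CA of protein phosphatase 2A rose by 1.89 and its scaffold PPP2R1A fell by 0.83.

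Of 11 tested MAP kinase genes, atypical ones included, 3 rose and 5 fell (median −0.06), beside 39.1% higher and 39.4% lower over all tested genes. MAPK8, which encodes JNK1, rose by 0.85 on the log2 scale and MAPK6, which encodes the atypical kinase ERK3, rose by 1.13, although annotated pseudogenes of MAPK6 leave its counts uncertain. MAPK3, which encodes ERK1, fell by 1.67, and MAPK12, which encodes p38γ and whose exons overlap those of HDAC10, fell by 3.09. Upstream, MAP2K3, a kinase that activates p38, had 4327, 3753 and 3815 CPM in depleted libraries, against 378, 342 and 327 CPM in replete libraries. Its log2 fold change was 3.73 (SE 0.08, edgeR adjusted p = 6.67e-13), while MAP2K6, the other main activator of p38, fell by 2.85 to 1.15 ± 0.309 CPM in depleted cells, against 9.67 ± 1.42 CPM in replete cells (SD, n = 3 each). MAP2K4, which activates JNK and p38 and has 1 annotated pseudogene, rose by 1.07. Of 7 MAP2 kinases, 3 rose and 1 fell (median 0.20, less than the shift of 0.23 between the scalings).

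Of 28 tested MAP3 kinases and their activators, 15 rose and 10 fell (median 0.36), beside 39.1% higher and 39.4% lower over all tested genes. GADD45B, which binds and activates MAP3K4, rose to 605 ± 14.8 CPM in depleted cells, against 33.7 ± 3.45 CPM in replete cells (SD, n = 3 each, log2 fold change 4.39, edgeR adjusted p = 4.03e-13). MAP4K5, an upstream kinase of JNK whose exons overlap those of ATL1 on the other strand, rose by 2.12. MAP3K5, the oxidant-sensitive kinase ASK1, fell by 1.48, and its partner MAP3K6 fell by 4.24, or by 4.96 without depleted replicate 2. MAP3K6 had 2, 3 and 0 counts in depleted libraries, against 29, 32 and 41 in replete libraries. The size of its fall thus rests on depleted levels near the detection limit. For JNK and p38 scaffolds, 4 of 5 rose and 1 fell (median 0.59), with SPAG9 higher by 1.47, the actin crosslinker FLNA higher by 0.45 and CCM2, which fell by 0.63, the exception. Neither FLNA nor CCM2 passed against a 1.5-fold change.

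Downstream, MAPKAPK2, the p38-activated kinase that governs the stability of AU-rich transcripts, rose to 708 ± 66.5 CPM in depleted cells, against 273 ± 8.10 CPM in replete cells (log2 fold change 1.60, edgeR adjusted p = 7.68e-10). Of 11 effector kinases, 2 rose and 5 fell (median −0.37), RPS6KA6 being the other that rose, by 1.31, and RPS6KA1 and MAPKAPK3 falling by 1.46 and 0.75. MAPKAPK3 overlaps CISH on the other strand and did not pass against a 1.5-fold change. Of 19 nuclear substrates, 16 rose and 1 fell (median 1.16). Beside both of these lists, 39.1% of all tested genes rose and 39.4% fell. JUN, the AP-1 subunit that JNK phosphorylates, had 1067, 1072 and 984 CPM in depleted libraries, against 16.6, 14.0 and 14.3 CPM in replete libraries (log2 fold change 6.34, edgeR adjusted p = 4.84e-14). ELK1, the ETS factor that links MAP kinases to serum response genes and that has 1 annotated pseudogene, rose by 2.25. Each of these lists was described by its counts and median, beside the −0.02 of all tested genes, and no list was tested as a set.

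**Figure D5:**
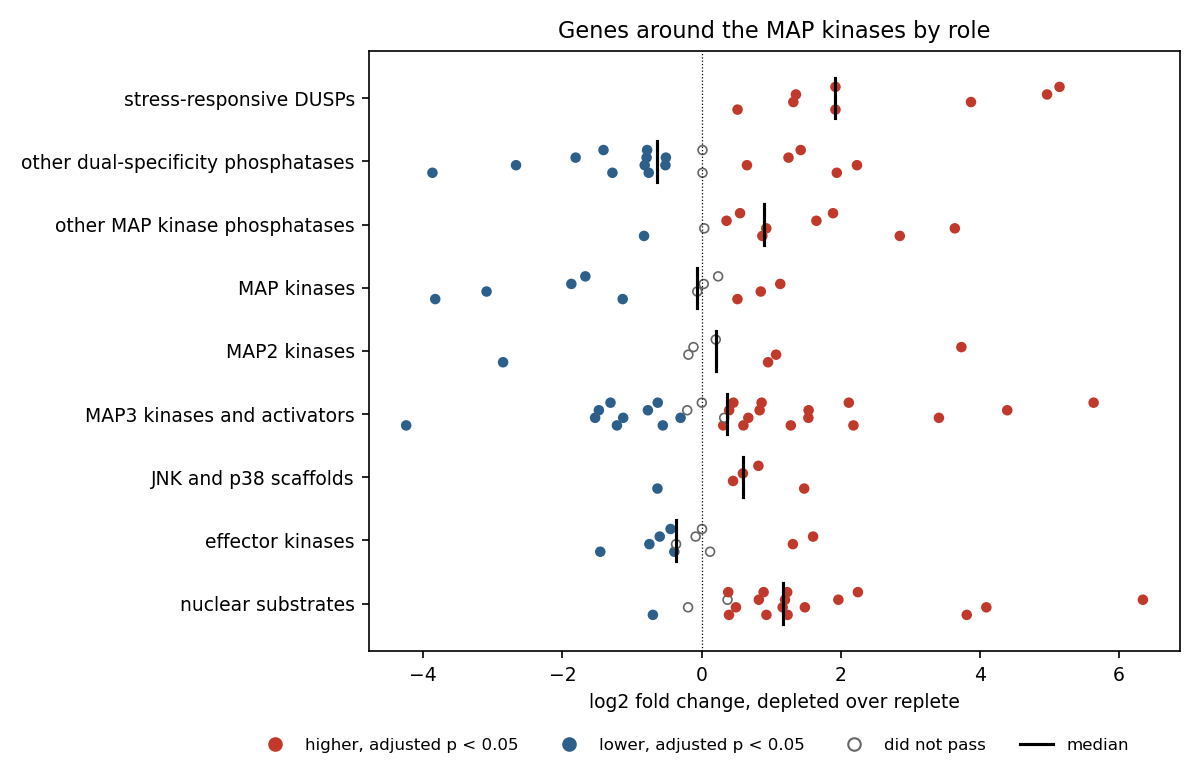
Log2 fold change, depleted over replete (horizontal axis), of each tested gene in 9 groups by role (rows), with genes higher in red, genes lower in blue, genes that did not pass in white, and the median as a black line. The 8 phosphatase genes all lie right of 0, while MAP kinases, MAP3 kinases and other dual-specificity phosphatases spread to both sides.

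Likeness of pattern was measured for DUSP10, the gene with the largest change, as the root-mean-square distance of centred, TMM-scaled log2 CPM (prior count 2) over the 6 libraries, among 8507 genes with a mean of at least 10 CPM. The nearest was TIPARP, a mono-ADP-ribosyltransferase, at a distance of 0.542, with 137, 81.4 and 126 CPM in depleted libraries, against 5.98, 5.43 and 5.03 CPM in replete libraries. The antisense RNA SERTAD4-AS1 (0.544), the stress gene GADD45A (0.571) and the cytokine IL11 (0.591) came next. GADD45A had 918, 383 and 736 CPM in depleted libraries, against 18.3, 13.5 and 16.0 CPM in replete libraries, so depleted replicate 2 was the lowest there as well. In all 4 of these genes depleted replicate 2 had the lowest depleted CPM, as in DUSP10. They were picked for likeness to DUSP10 over these same libraries, which favours such a pattern, so it is no separate result. A distance over 6 libraries in 2 groups mainly reflects the shared difference between the groups.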

How the data were processed

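Each deposited file gives the counts of 1 library by gene symbol, not normalized, as seen in whole numbers with unequal totals. Per the labels, 500 ng of total RNA entered a QuantSeq 3′ library. Bowtie2, edgeR and hg19 are named without roles, per the submitters' processing notes, and the counter, annotation and strand use are not given in the sources used here, so opposite-strand overlaps count as uncertain. None of the 8 genes overlaps exons of another counted gene in GENCODE 29. Counts of 286 symbols on several entries were summed. Genes were filtered with filterByExpr (minimum count 10, minimum total 15), TMM-scaled and tested with the robust two-sided quasi-likelihood test of edgeR 4.0.16 (R 4.3.3) over all 12739 genes, with Benjamini-Hochberg adjustment at 0.05. The SE is the log2 fold change over the square root of F. The test was also run on simulated data with planted changes, as a check of the code only. Far fewer genes changed in the simulation than were called in these data, so it lends no support to the results. Motifs were searched with Python 3.11.15 in RefSeq promoters, and AU-rich letters in 1 GENCODE 29 transcript per gene, the principal one.

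The members and gene lists were chosen with earlier results of these data known. Named were the 8 members, DUSP4, DUSP5, DUSP6 and DUSP9, for each list up to 2 genes per direction by smallest p, and 5 genes most like the member with the largest change. Genes that the rule names but that have no value in the text are not reported here. Single marker genes and the GADD45A values were picked after they were seen. The alternatives were 17 in number: upper quartile factors, library totals, DESeq2 size factors, a mean of at least 10 CPM, no count filter, a replicate block, each library left out, DESeq2 1.42.0, limma-voom (limma 3.58.1), glmTreat against 1.5-fold, the largest entry per symbol, and removal of a loess trend (span 0.5) on GC content and on transcript length, for which 94.2% of tested genes had values.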

Additional observations from a re-analysis of the deposited data

How the results depend on the processing

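Each of the 8 genes kept its direction under every alternative that tested it. The set had 8 genes higher and 0 lower in all but a pair of the 17 alternatives. In the alternatives outside that pair, the number of all tested genes called higher ran from 4132 of 12739 (library totals) to 5524 of 19288 (no count filter). Against a 1.5-fold change, 7 were higher, as DUSP3 did not pass (log2 fold change 0.52, adjusted p = 0.692, within 2.89e-06 to 0.692 over its alternatives), and over all genes 3324 rose in place of 4987. With a mean of at least 10 CPM, DUSP10 was not tested and the other 7 rose, beside 3472 of 8507 tested genes. DUSP10 ranged from 4.78 to 6.30 on leaving out a library (adjusted p from 3.35e-16 to 0.00672 over its alternatives), and of the 8 genes it alone moved by over 1.5 times, 2.24 times without replete replicate 1. Removing the GC and length trend gave 4.35 for DUSP2 and 5.46 for DUSP8. Library totals, upper quartile factors and the 10 CPM filter moved the median gene by −0.23, −0.21 and −0.10. Same-numbered libraries deviated together little (correlations 0.12, 0.01 and 0.04 over 12739 genes), so the numbers were not taken to pair the samples. The fit with the replicate block called 4941 genes higher and 4999 lower, and 8 of the 8 phosphatase genes higher. Replicate 1 of the depleted libraries correlated best with its own number, as did replicate 3, and replicate 2 did not. Depth limits DUSP10 in replete cells, at 15 counts over 3 libraries.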

Other observations

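Several dual-specificity phosphatase genes were too low to be tested in H460 cells. DUSP21, DUSP26, DUSP27 and DUPD1 had no count in any of the 6 libraries, which allows up to 0.275 to 0.397 CPM per library. DUSP13, known mainly from muscle and testis, had 0, 0 and 0.461 CPM in depleted libraries, against 0.665, 0.758 and 0 CPM in replete libraries. DUSP15 had 0, 0 and 0.115 CPM in depleted libraries and no count in replete libraries. Of the better measured relatives, DUSP12 did not pass in either direction, at 27.7, 24.6 and 25.3 CPM in depleted libraries, against 27.1, 32.8 and 30.2 CPM in replete libraries (log2 fold change 0.01, edgeR adjusted p = 0.921). These genes were chosen after their values were seen.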
